A study of Apeltes quadracus with 85 samples.

Results

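The blank pterygiophore (Pter) was compared with the last dorsal spine (DSL) in the 11 fish of the fourspine stickleback Apeltes quadracus from which both were dissected. All libraries of these tissues were taken, 11 of Pter and 11 of DSL, so that 22 of the 85 libraries of the study entered and each fish was its own control. Every fish was an offspring of laboratory clutches of the Louisbourg population, was sampled as fry at the fin fold stage, and was heterozygous for haplotypes of HOXDB, a cluster of Hox genes. Haplotype H goes with many dorsal spines, haplotype L with few, and LHR is a recombinant of both. There were 4 H/L fish, 3 H/LHR fish and 4 L/LHR fish, without any further treatment, and no fish carried 2 copies of the same haplotype. A replicate number within a genotype stands for 1 fish. The other tissues of the study, used below only to place these values, are dorsal spines 1 to 4 (DS1 to DS4), the anal fin (AF) and the dorsal fin (DF). All H/L and H/LHR fish had a DS4 library, but among the L/LHR fish only replicate 1 did.

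Pterygiophores are flat median bones under the skin of the back. Some of them carry a dorsal spine, and a blank one carries none. DSL is the spine directly in front of the dorsal fin. In Apeltes blank pterygiophores lie both in front of the first spine and in the row before DSL. The labels do not say which one was taken, but the study's anterior to posterior order of tissues places Pter between the anterior spines and DSL. The comparison therefore sets a position of the row that grows a spine against one that does not. Hox genes encode DNA-binding proteins that give serially repeated structures of the vertebrate trunk their identity along the anterior to posterior axis. Genes of Hox group 9 and Hox group 11 are typically active in posterior positions. HOXD9B and HOXD11B are members of the HOXDB cluster, 1 of the Hox clusters of teleost fish.

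The files count RNA-seq reads by allele at single-nucleotide sites, and they name no genes. The reads of both alleles were summed over the sites in fixed bins of 10 kb along the study's own Apeltes assembly, and are given as RPM, that is per M (mega) of the reads that the library counted over all sites. No gene annotation of that assembly was at hand. Bins are therefore given by position, HOXD9B and HOXD11B are named on the word of the study, and the labelled tissues could not be checked against marker genes. The dissected pieces hold many cell types, and fewer cells of a type cannot be told apart from less RNA per cell.

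Summed over all sites, Pter had 16.6 to 40.9 M reads per library (median 35.4 M) and DSL 4.78 to 41.0 M (median 34.2 M). Only the DSL libraries of H/L replicate 3 (4.78 M) and H/L replicate 4 (7.43 M) were under 10 M reads. Normalisation factors of the trimmed mean of M-values (TMM), which compensate for a few bins taking a large share of the reads, were 0.785 to 1.09 in Pter and 0.911 to 1.21 in DSL. A read that covers several sites counts at each of them. The labels say which libraries come from 1 fish but give no sequencing batch. P-values measure the spread among these fish, except those of exact tests on allele reads, which cover counting error only.

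The first question was how much of the transcriptome, as far as the listed sites cover it, differed between the 2 positions. Transcripts without a listed site are not seen. Of 28543 bins with reads, 20100 were tested, and 5337 (26.6%) differed between Pter and DSL within fish (edgeR quasi-likelihood test with fish as a block, Benjamini-Hochberg adjusted p under 0.05). At an unadjusted p under 0.05 there were 7676 bins. Of the called bins, 2799 (13.9% of those tested) were higher in DSL and 2538 (12.6%) were higher in Pter. The numbers in both directions were thus similar, and so was the median size of a called change, 0.57 on the log2 scale in the DSL-high and 0.55 in the Pter-high bins. The large changes were mostly DSL-high. A change of at least 2-fold was found in 515 bins higher in DSL (2.56% of bins tested) and in 173 bins higher in Pter (0.861%), a change of at least 4-fold in 92 and 4 bins, and a change of at least 8-fold in 25 bins and 1 bin. Neighbouring bins with the same direction were joined, since 1 gene can span several bins. The DSL-high bins then formed 2132 runs, 412 of them with a 2-fold bin, and the Pter-high bins formed 1765 runs, 137 of them with a 2-fold bin.

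The similar split depended on the scaling. With library totals alone, 6232 bins were called higher in DSL and 1069 higher in Pter, because the median log2 difference over all bins moved by -0.21. Changes below are from the TMM-scaled fit unless library totals are named, and levels in RPM use library totals.

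**Figure D1:**
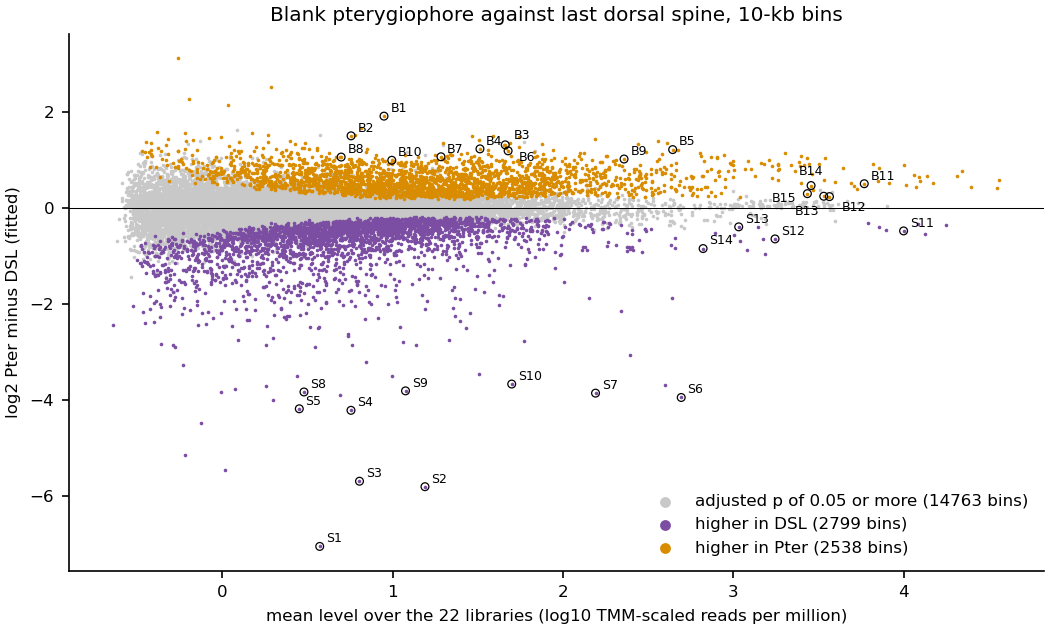
Fitted log2 difference, Pter minus DSL, of each of the 20100 tested 10-kb bins against its mean level over the 22 libraries (log10 scale of TMM-scaled RPM). Purple points (2799) were higher in DSL, orange points (2538) higher in Pter and grey points not called. Circles mark the bins described in the text. Purple points reach -7.06, while few orange points lie above 2.

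Agreement among fish also differed between the directions. A bin was higher in DSL in all 11 fish in 983 cases (4.89% of bins tested) on the TMM scale and in 1678 cases (8.35%) on library totals. The opposite, higher in Pter in all 11 fish on the TMM scale, held for 411 bins (2.04%). Of the 515 bins at least 2-fold higher in DSL, 339 had that direction in all 11 fish. Of the 173 bins at least 2-fold higher in Pter, 26 did. In 252 bins (1.25%) the lowest DSL library lay above the highest Pter library in RPM, and in 5 bins (0.0249%) the lowest Pter library lay above the highest DSL library. The counts of 1678, 252 and 5 bins use library totals, with which the median log2 difference over all bins moved by -0.21, towards DSL. The part of the scaling in these counts was not tested.

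The fish that broke the pattern on the Pter side was mostly H/L replicate 2. Its median log2 difference over the 173 Pter-high bins was -0.33, with 51 of the 173 bins in the direction of the call. In the other 10 fish the median was 0.44 to 2.29, with 157 to 171 bins in that direction. Without H/L replicate 2 the count of bins at least 2-fold higher in Pter rose from 173 to 395. It was 294 without H/LHR replicate 3 and 265 without L/LHR replicate 1, whose medians (0.44 and 0.63) were among the smallest. It was 109 without H/L replicate 3, 106 without H/L replicate 4 and 71 without both of these fish, whose DSL libraries were the shallow ones and whose medians were the largest (2.29 and 2.16). The number of Pter-high bins at this fold therefore rested on single fish. In the 515 DSL-high bins every fish had a median in the direction of the call, from -1.89 to -1.0, and leaving out 1 fish gave 467 to 565 bins. The share of the counted reads that lay at listed sites of the mitochondrial sequence moved with these values as well. This share is not that of mitochondrial reads in the whole library. It was 0.0176% to 0.0248% in the DSL libraries of the 4 fish with the largest medians (H/L replicates 3 and 4, L/LHR replicate 2 and H/LHR replicate 2, medians 1.71 to 2.29) and 0.00467% to 0.0120% in those of the other 7 fish. The DSL library of H/LHR replicate 2 was not shallow (34.2 M reads). The part of depth and of the mitochondrial share in the Pter-high values was not tested.

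As a share of a library's reads, the DSL-high and Pter-high sets behaved differently across tissues. The 515 DSL-high bins took 0.128% to 0.300% of the reads in Pter and 0.605% to 1.38% in DSL, without overlap, and the medians of the other 6 tissues lay between, from 0.358% in DS4 to 0.619% in DS2. The 173 Pter-high bins took 2.06% to 3.26% in Pter and 0.534% to 2.65% in DSL, and here the groups overlapped. The highest DSL share, 2.65%, belonged to H/L replicate 2 (2.07% in its Pter), and the lowest, 0.534% and 0.841%, to the shallow libraries of H/L replicates 4 and 3. In medians over fish, Pter was the lowest of the 8 tissues in 464 of the 515 DSL-high bins (90.1%) against 31.3% of all bins tested, and DSL was the highest in 250 of them (48.5%) against 8.19%. Pter was the highest of the 8 tissues in 124 of the 173 Pter-high bins (71.7%) against 6.75% of all bins, and DSL was the lowest in 61 (35.3%) against 4.99%. These shares are descriptions, since the bins had been chosen on Pter and DSL themselves. The ranks use library totals, with which the median log2 difference over all bins moved by -0.21, so Pter ranks low more readily. Both Pter at the bottom and DSL at the top were more frequent in the DSL-high set than over all bins.

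The second question concerned the HOXDB genes, the candidate genes of the study. The window around the HOXD11B variant of the study (chr6:16020516, in its 3′ untranslated region per the study) covered chr6:16017516-16023516 and 27 sites. The window around both HOXD9B variants (chr6:16027923 and chr6:16028519, likewise 3′ untranslated) covered chr6:16024923-16031519 and 40 sites. Both windows extend 3 kb beyond the variants and may hold sequence of other genes.

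HOXD11B was lower in Pter than in DSL in all 11 fish. Its window level in Pter was 2.87 RPM at the lowest, 6.14 RPM at the median and 10.4 RPM at the highest. In DSL the lowest, median and highest levels were 7.20, 12.4 and 14.4 RPM. The ranges overlapped because the Pter of H/L replicate 4 (10.4 RPM) and of L/LHR replicates 3 (8.15 RPM) and 4 (7.32 RPM) lay above the lowest DSL libraries, but each lay below the DSL of its own fish. On the log2(RPM + 0.01) scale the difference was -1.07 ± 0.46 (SD, n = 11), a level 2.10 times lower in Pter (exact sign-flip permutation test within fish, two-sided, p = 0.000977, the smallest that 11 fish allow). By genotype the log2 difference was -0.98 ± 0.56 (SD, n = 4) in H/L, -1.36 ± 0.58 (SD, n = 3) in H/LHR and -0.93 ± 0.20 (SD, n = 4) in L/LHR fish.

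HOXD9B was also lower in Pter than in DSL in all 11 fish. Its window level was 11.8 to 26.9 RPM in Pter (median 16.1) and 21.3 to 49.5 RPM in DSL (median 35.4). Only the Pter of H/L replicate 4 (26.9 RPM) reached into the DSL range, where its own DSL was the highest at 49.5 RPM. The log2 difference was -1.0 ± 0.41 (SD, n = 11), a level 2.00 times lower in Pter (exact sign-flip permutation test, two-sided, p = 0.000977). It was -1.09 ± 0.48 (SD, n = 4) in H/L, -1.14 ± 0.49 (SD, n = 3) in H/LHR and -0.81 ± 0.29 (SD, n = 4) in L/LHR fish. With the TMM factors both genes remained lower in Pter in all 11 fish, by -0.85 for HOXD11B and -0.78 for HOXD9B (exact p = 0.000977 for each).

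**Figure D2:**
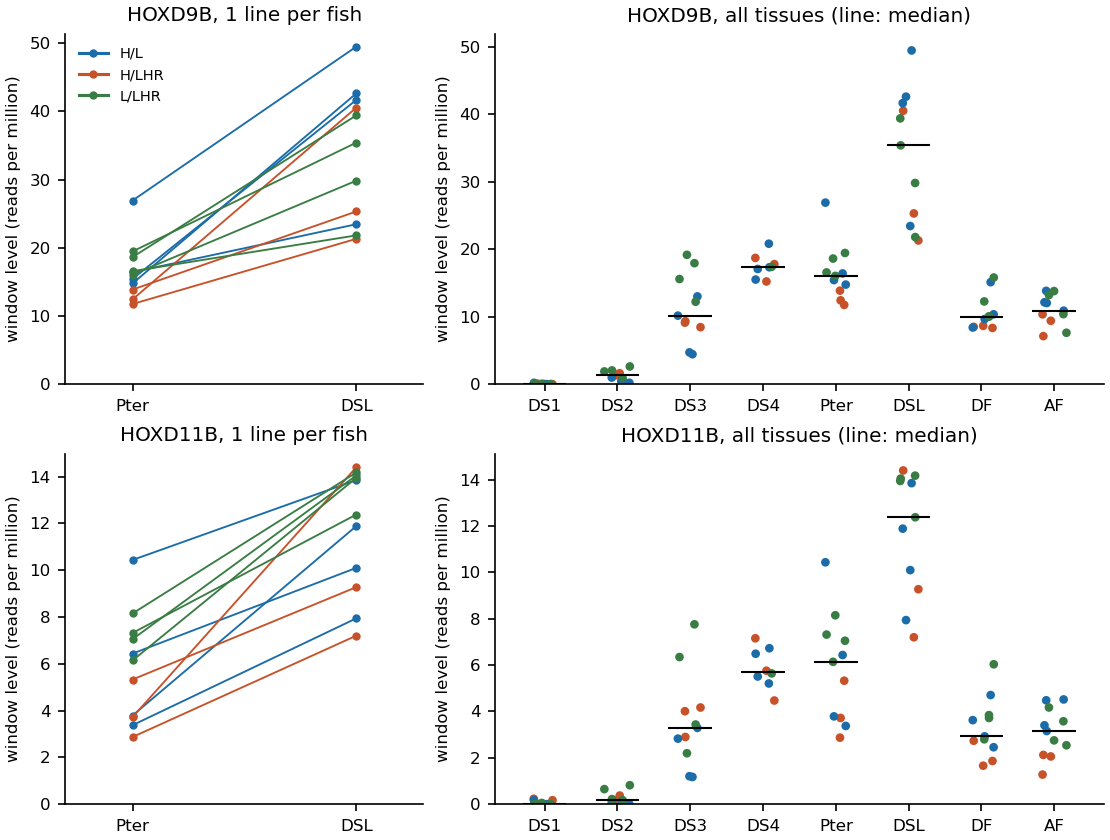
Window levels of HOXD9B (top) and HOXD11B (bottom) in RPM, coloured by genotype. The left panels join Pter and DSL of each of the 11 fish by a line, and every line rises from Pter to DSL. The right panels show each library of all 8 tissues with the median as a bar, from near 0 in DS1 to the highest medians, 35.4 RPM (HOXD9B) and 12.4 RPM (HOXD11B), in DSL.

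In medians along the back, Pter sat near DS4 and well under DSL. The Pter medians are over 11 fish and those of DS4 over 8, without L/LHR replicates 2 to 4. For HOXD11B the medians were 0 RPM in DS1, 0.175 in DS2, 3.29 in DS3, 5.70 in DS4, 6.14 in Pter and 12.4 in DSL, with 2.93 in DF and 3.16 in AF. For HOXD9B they were 0.0261 RPM in DS1, 1.3 in DS2, 10.2 in DS3, 17.4 in DS4, 16.1 in Pter and 35.4 in DSL, with 10.0 in DF and 10.9 in AF. The Pter and DS4 ranges overlapped for both genes (4.47 to 7.16 RPM for HOXD11B and 15.2 to 20.8 RPM for HOXD9B in the 8 fish with DS4), and so did those of DS3, DF and AF. Apart from Pter, only DS3 of HOXD11B (up to 7.76 RPM) reached the DSL range. Within the fish that had DS4, it lay above Pter for both genes except in H/L replicate 4 and L/LHR replicate 1. For HOXD11B, H/LHR replicate 2 had 7.16 RPM in DS4 and 3.72 RPM in Pter, and H/L replicate 4 had 6.49 and 10.4 RPM. This order within fish was not tested.

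The 10-kb bin that holds most of both windows, chr6:16020001-16030000, changed with them, by a log2 difference of -0.81 (SE 0.08, edgeR adjusted p = 9.08e-06), lower in Pter in 11 of 11 fish. Its neighbours within 50 kb did not follow as a block. The bin chr6:15990001-16000000 was higher in Pter (1.01, adjusted p = 0.00870), and so were chr6:16000001-16010000 (0.46, adjusted p = 0.00354) and chr6:16040001-16050000 (0.33, adjusted p = 0.0172), each in 10 of 11 fish by edgeR. The adjacent bin chr6:16010001-16020000 (0.11, adjusted p = 0.549) and chr6:16050001-16060000 (0.05, adjusted p = 0.794) were not called. The bin chr6:16070001-16080000 was lower in Pter (-0.63, adjusted p = 0.0129) in 9 of 11 fish.

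The allele ratios asked whether the haplotypes themselves were used differently in Pter and DSL. For each genotype the haplotype reads of its fish were added up and tested with Fisher's exact test, two-sided, with exact 95% binomial intervals (Clopper-Pearson). The test and the intervals cover counting error only, not the spread among fish. At HOXD9B in H/L fish, H gave 91 of the 201 reads in Pter (45.3%, interval 38.3% to 52.4%) and 72 of 154 in DSL (46.8%, 38.7% to 55.0%), with an exact p = 0.830. In H/LHR fish, H gave 29 of 66 reads in Pter (43.9%, 31.7% to 56.7%) and 100 of 184 in DSL (54.3%, 46.9% to 61.7%), with an exact p = 0.154. In L/LHR fish, L gave 80 of 138 reads in Pter (58.0%, 49.3% to 66.3%) and 111 of 195 in DSL (56.9%, 49.7% to 64.0%), with an exact p = 0.911. None of the HOXD9B ratios differed past the threshold between the 2 tissues.

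At HOXD11B, H carries the allele that differs from the reference assembly. At HOXD9B the reference allele was that of L in H/L and L/LHR fish and that of H in H/LHR fish. The reference allele gave 56.5% to 58.9% of the reads in each of the 22 libraries, as the mean over sites heterozygous within the library. At sites called heterozygous from the other tissues, the median log2 ratio of reference to alternative reads was 0.11 to 0.18. Haplotype shares at both genes are therefore compared between tissues only. At HOXD11B in H/L fish, H made up 32.3% of the 96 reads in Pter (23.1% to 42.6%) and 37.4% of the 115 reads in DSL (28.5% to 46.9%), with p = 0.471 by Fisher's exact test. In H/LHR fish it was 35.7% of 42 reads in Pter (21.6% to 52.0%) and 43.1% of 137 reads in DSL (34.6% to 51.8%), with p = 0.475 by the same exact test. Adjusted over the 5 HOXDB allele tests, the p-values were 0.771 to 0.911. Per fish the change had no common direction at HOXD9B in H/L fish, where the log2 ratio of H to L in Pter minus DSL was -0.31, -1.34, 1.90 and 1.32 in replicates 1 to 4. At HOXD11B it was below 0 in all 7 fish, from -0.91 to -0.06, although the reads summed without H/L replicate 2 gave 0.061 in H/L fish, since fish of unequal depth weigh differently in Pter and DSL sums. With 42 to 201 reads per tissue and genotype, the intervals were wide. Even the H shares of 43.9% in Pter and 54.3% in DSL at HOXD9B in H/LHR fish did not differ past the threshold. Changes of that size can thus have gone undetected at this depth.

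The largest changes among the bins tested were described by a fixed rule. It took 1 bin per run, from bins that moved the same way in all 11 fish. The mean in the higher tissue had to be at least 5 RPM. The 10 such bins with the largest fold in favour of DSL are called S1 to S10 here. Pter and DSL libraries did not overlap in any of the 10, against the 1.25% of all tested bins given above. The rule picked large folds on these same libraries, so this separation follows largely from it.

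S1 (chr19:10790001-10800000, 17 sites) was close to silent in Pter. It had 17 reads over the 11 Pter libraries, with 6 libraries at 0, and 2103 reads over the 11 DSL libraries. In RPM, Pter ranged from 0 to 0.158 and DSL from 1.47 to 19.2 with a median of 8.16. The fitted log2 difference of -7.06 (SE 0.35, adjusted p = 1.45e-08) depends on the small count that edgeR adds, so the read numbers describe this bin better. Among the other tissues its median was 2.31 RPM in DS1, 1.22 in DS2, 0.439 in DS3 and 0.0571 in DS4, so that it was low in DS4 and Pter and high again in DSL.

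S2 lay in the unplaced sequence (chrUn:12560001-12570000), inside a run of 4 called bins from 12540001 to 12580000. The unplaced sequence is a join of contigs, so a run there may cross a join. S2 ranged from 0 to 2.55 RPM in Pter (median 0.398) and from 6.32 to 77.1 RPM in DSL (median 31.6), a log2 difference of -5.81 (SE 0.39). Its medians in DF (0.550) and AF (0.393) were as low as in Pter, while DS1 to DS3 had 21.8 to 26.8 RPM and DS4 had 9.44. S2 was thus read in the spines but hardly in the fins or the blank pterygiophore.

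S3 (chr8:8600001-8610000) ranged from 0 to 1.03 RPM in Pter and from 8.33 to 19.2 RPM in DSL, a log2 difference of -5.70 (SE 0.29). S4 (chr15:4820001-4830000) ranged from 0.0979 to 1.13 RPM in Pter and from 5.83 to 20.0 RPM in DSL (-4.22, SE 0.20), with 62.4% of its reads at 1 site. S5 (chr16:15000001-15010000) ranged from 0 to 0.739 RPM in Pter and from 1.77 to 10.4 RPM in DSL (-4.19, SE 0.30). In each of these 3 bins the lowest DSL library lay above the highest Pter library, and Pter was the lowest of the 8 tissues.

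S6 (chr15:8380001-8390000, 27 sites) was the most strongly read of the 10 bins and the only one of them that also led by level. Its Pter levels were 11.0 RPM at the lowest, 57.3 at the median and 186.8 at the highest. In DSL they were 482, 873 and 2104 RPM. The log2 difference was -3.95 (SE 0.33, adjusted p = 1.0e-06), from -5.39 in H/LHR replicate 2 to -1.44 in L/LHR replicate 4, which had the highest Pter level. All other tissues were between, from a median of 326 RPM in DS4 to 664 RPM in DS2, so that Pter stood below every spine and both fins.

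S7 (chr14:9610001-9620000, 30 sites) had the second highest level of the 10, with 5.65 to 47.0 RPM in Pter (median 17.6) and 140 to 591 RPM in DSL (median 286). Its log2 difference was -3.86 (SE 0.25, adjusted p = 8.97e-08), and DS4, at a median of 62.4 RPM, was the next tissue above Pter. S8 (chr10:14320001-14330000) had medians of 0.196 RPM in Pter and 4.67 RPM in DSL (-3.84, SE 0.25), with a similar level in AF (5.14). S9 (chr2:11770001-11780000) had medians of 1.29 and 21 RPM (-3.81, SE 0.21). S10 (chr9:470001-480000) had medians of 4.53 and 98.5 RPM (-3.67, SE 0.33), and its next tissue below DSL was AF at 48.1 RPM.

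Taken by tissue, S1 to S10 shared an order in which DS4 was the lowest of the spines. Pter was the lowest of the 8 tissues in 9 of the 10 (in S2 AF was lower), and DSL was the highest in 8 of them. In S3 the highest median was that of DS2 (16.4 RPM, against 14.1 in DSL) and in S8 that of AF. These orders are medians over 11 fish (8 for DS4) in bins chosen on Pter and DSL. The order of the spines DS1 to DS3 was not tested.

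**Figure D3:**
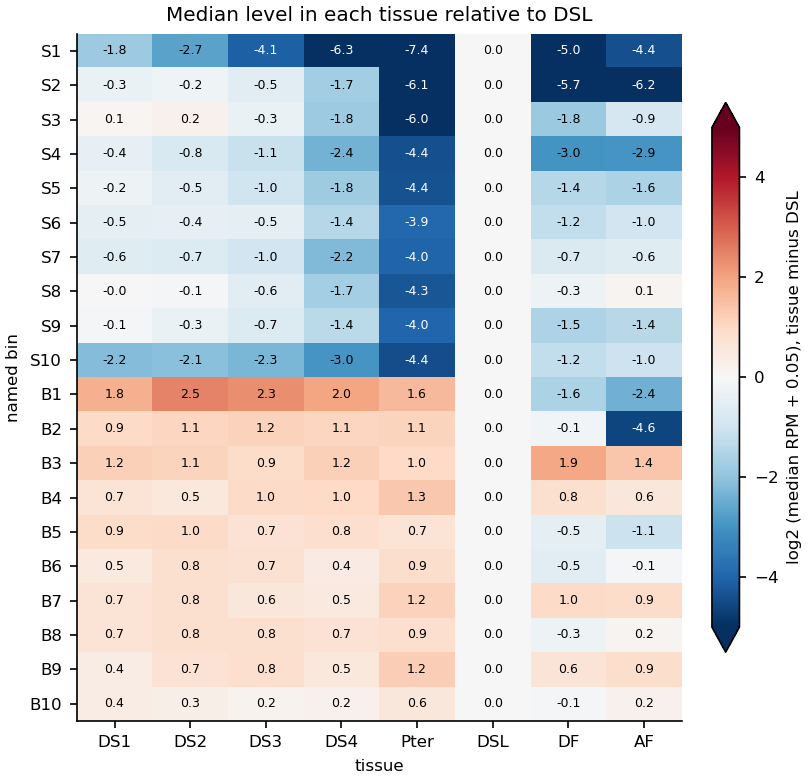
Median level of S1 to S10 and B1 to B10 in each tissue relative to DSL, as log2 of (median RPM + 0.05) minus the same in DSL. Blue is below DSL and red above it, and DSL is 0 by construction. The Pter column is the darkest blue in S3 to S10, where DS4 is paler. The colour scale is cut at its lower end, so that Pter, DS4 and DF share the darkest blue in S1. The B rows are red in most spines.

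By level rather than fold, the strongest DSL-high bins beside S6 were S11 to S14, and their changes were small. S11 (chr10:8980001-8990000, 69 sites) took 5512 to 9688 RPM in Pter (median 7650) and 8871 to 18215 RPM in DSL (median 11358), a log2 difference of -0.48 (SE 0.10, adjusted p = 0.00333). S12 (chr12:2260001-2270000) had medians of 1244 and 2380 RPM (-0.65, SE 0.10), and S13 (chr20:9670001-9680000) had 821 and 1217 RPM (-0.40, SE 0.09). S14 (chr17:11690001-11700000) had 427 and 901 RPM (-0.85, SE 0.12). The groups overlapped in all 4 bins, although DSL was higher in each of the 11 fish on the TMM scale. For S11 this was nominal in H/L replicate 2, at a log2 difference of -0.004. On library totals its Pter (9688 RPM) lay above its DSL (9541 RPM). Pter had the lowest median of the 8 tissues in each of the 4 bins, as it had in 31.3% of all bins tested.

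The 10 bins with the largest fold in favour of Pter under the same rule are called B1 to B10. Their log2 differences ran from 1.91 to 0.99, and in 8 of the 10 the groups overlapped.

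B1 (chr5:11240001-11250000, 14 sites) led this side and lay in a run of 5 called bins from 11230001 to 11280000. It ranged from 6.45 to 29.3 RPM in Pter (median 12) and from 1.90 to 6.73 RPM in DSL (median 3.88), a log2 difference of 1.91 (SE 0.17, adjusted p = 1.62e-06), and 68.5% of its reads were at 1 site. The overlap came from the Pter of H/LHR replicate 1 (6.45 RPM) and the DSL of L/LHR replicate 2 (6.73 RPM). B1 was not at its highest in Pter: the medians of DS1 to DS4 were 13.4 to 21.9 RPM, and those of DF (1.25) and AF (0.699) were lower than DSL. DSL stood apart from the other dorsal spines in this bin, at a level between theirs and that of the fins.

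B2 (chr21:9500001-9510000, 35 sites) and B5 (chr11:11590001-11600000, 83 sites) were the 2 bins of the 10 without overlap, against 0.0249% of tested bins. As with S1 to S10, the rule had chosen these bins on the same libraries. B2 ranged from 5.12 to 11.9 RPM in Pter and from 0.673 to 5.04 RPM in DSL (1.5, SE 0.19, adjusted p = 8.02e-05). B5 ranged from 439 to 792 RPM in Pter and from 120 to 420 RPM in DSL (1.21, SE 0.18, adjusted p = 0.000255). Both had the DS1 to DS4 medians near that of Pter (6.74 to 7.81 RPM for B2 and 532 to 628 RPM for B5) and their lowest medians in AF (0.0953 and 156 RPM).

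B3 (chr15:8680001-8690000) had medians of 56.5 RPM in Pter and 27.9 RPM in DSL (1.31, SE 0.18), with DSL the lowest of the 8 tissues and DF the highest (107 RPM). B4 (chr2:5470001-5480000, 6 sites) had medians of 44.9 and 17.8 RPM (1.23, SE 0.20). In B4 the fish themselves differed more than the tissues, since H/L replicates 2 and 3 and H/LHR replicate 1 had at most 9 reads in either tissue, and 54.5% of the reads in the bin came from 1 site. A sequence difference between fish at the sites of B4 was not tested.

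B6 to B10 had log2 differences of 1.19 (SE 0.24), 1.07 (SE 0.20), 1.06 (SE 0.22), 1.02 (SE 0.18) and 0.99 (SE 0.16), in that order. Their positions were chr13:11820001-11830000, chr7:24040001-24050000, chr19:2420001-2430000, chr9:7490001-7500000 and chr7:26040001-26050000. B9 was the strongest of them, with 151 to 360 RPM in Pter (median 317) and 86.6 to 290 RPM in DSL (median 136). Pter was the highest of the 8 tissues in all 5 of these bins and in B4. In H/L replicate 2 the log2 differences of B6, B9 and B10 were 0.01, 0.05 and 0.03, so that its agreement in direction there was nominal. The same held for B8 in H/LHR replicate 1, at 0.03 with TMM and with 1.76 RPM in Pter against 2.08 RPM in DSL on library totals.

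**Figure D4:**
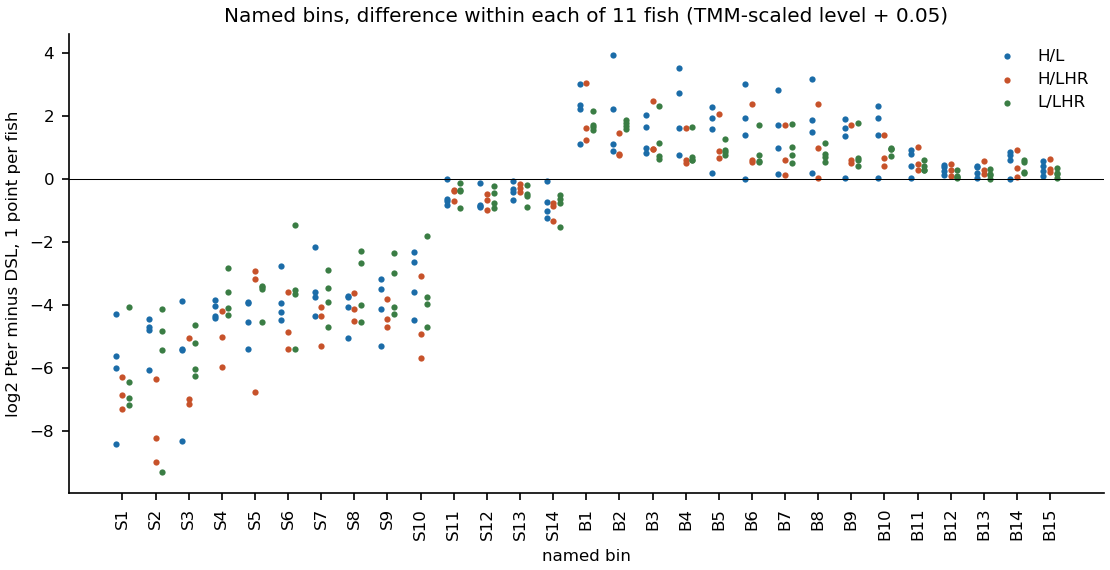
Log2 difference, Pter minus DSL, within each of the 11 fish for the bins S1 to S14 and B1 to B15 (TMM-scaled level + 0.05), coloured by genotype. Every point of S1 to S14 lies below 0 and every point of B1 to B15 above 0, as the rule required. S1 to S10 lie at -1.44 or lower, S11 to S14 between -1.51 and 0, and B11 to B15 between 0 and 1.02.

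The Pter-high bins with the highest levels, B11 to B15, were chr10:2200001-2210000 (0.50, SE 0.10), chr19:14970001-14980000 (0.23, SE 0.08), chr8:15170001-15180000 (0.24, SE 0.08), chr8:17820001-17830000 (0.47, SE 0.10) and chr4:7660001-7670000 (0.30, SE 0.08). Their Pter medians were 2719 to 5800 RPM and their DSL medians 2586 to 5044 RPM. With library totals alone the differences of B12, B13 and B15 were 0.01, 0.02 and 0.08 and were not called. B12 and B13 were close to the threshold (edgeR adjusted p = 0.0431 and 0.0391) and lost their call in 16 and 13 of 24 alternatives. B11 fell to 0.01 (edgeR adjusted p = 0.964) with 1 site per bin. The groups overlapped in all 5 bins. Agreement in direction was nominal in some fish, such as H/L replicate 2 for B14 (0.003) and L/LHR replicate 3 for B13 (0.014). On library totals, Pter lay below DSL in some fish. In B12 these were H/L replicate 3, H/LHR replicates 2 and 3 and L/LHR replicates 1, 3 and 4 (3318 and 3494 RPM in L/LHR replicate 3). In B13 they were H/L replicate 3 and L/LHR replicate 3, and in B15 H/L replicate 3 and L/LHR replicate 4. In B14 it was H/LHR replicate 3 (2982 RPM in Pter and 3062 RPM in DSL).

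The third question was whether the Pter to DSL difference varied with the HOXDB genotype. With tissue by genotype terms added to the edgeR fit, 0 of the 20100 bins (0.0%) were called and 795 (3.96%) had an unadjusted p under 0.05. The latter count was 2023 (10.1%) without H/L replicate 2 and 426 (2.12%) without L/LHR replicate 4. In the HOXDB bin the p of the interaction was 0.783. The 3 smallest p were 0.000391 (G1, chr15:2270001-2280000), 0.000618 (G2, chr12:230001-240000) and 0.000668 (G3, chr16:7310001-7320000), each with an edgeR adjusted p of 0.974. In all 3 the L/LHR fish were higher in Pter (per-fish log2 difference 0.17 to 1.45 for G1, 0.30 to 1.42 for G2 and 0.57 to 2.06 for G3) and the H/L fish lower (-1.71 to -0.31, -0.73 to -0.16 and -1.45 to -0.04). The H/LHR fish were lower in G1 (-1.30 to -0.63) and on both sides of 0 in G2 (-0.35 to 0.20) and G3 (-0.03 to 0.39). G1 to G3 were picked for their small interaction p in these same fish, so the separation of genotypes follows largely from the choice. With 3 or 4 fish per genotype, an adjusted p over the threshold does not show that the genotypes share 1 difference. Genotype also went largely with the presence of a DS4 library, and the part of each in these values was not tested.

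Across all heterozygous sites, the ratio of reference to alternative reads was then compared between Pter and DSL within fish. Heterozygous fish were called from all of their other tissues that had a library, and a fish entered a site with at least 20 reads in each of its 2 libraries. Of 7512 sites tested in at least 4 fish, 38 (0.506%) changed (limma on the per-fish log2 ratio, adjusted p under 0.05), and they lay in 13 loci. At an unadjusted p under 0.05 there were 569 sites. The reference share was higher in Pter at 19 of the called sites and lower at the other 19, and 21 sites in 9 loci moved the same way in every fish measured. The count rested on single fish, from 7 sites without H/L replicate 1 or without L/LHR replicate 3 to 69 without H/L replicate 4. It was 9, 10 and 11 without L/LHR replicate 4, H/LHR replicate 2 and H/LHR replicate 1, and 18, 22 and 24 without H/LHR replicate 3, L/LHR replicate 2 and L/LHR replicate 1.

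Of the 38 called sites, 22 (57.9%) were heterozygous in all 11 fish, and 13.8% of the sites tested were. Sites heterozygous in more fish also have more fish measured, and with at least 6 fish per site 54 of 3337 sites (1.62%) were called. Fish of 1 clutch are all heterozygous where their parents were homozygous for different alleles, and reads of similar copies that map together look heterozygous in every fish as well. The part of these in the called sites was not tested. Of the 38 sites, 7 (18.4%) lay in a bin whose level had changed, and 32.9% of the sites tested did. The 38 sites are linked within 13 loci, so both shares are given as descriptions.

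The 6 loci with the smallest p and 1 direction in every fish measured are called A1 to A6, after their leading site. At A1 (chrUn:1234780) the reference allele gave 48.3% of the reads in Pter and 68.0% in DSL, a log2 change of -1.23 (SE 0.19, limma adjusted p = 0.00824), lower in 9 of 9 fish. At A2 (chr21:980439) the shares were 49.6% and 68.7% (-1.21, SE 0.19), lower in 10 of 10 fish. All 11 fish were called heterozygous at both sites, and neither bin was called for its level.

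At A3 (chr11:7294459) the reference share was 67.3% in Pter and 46.0% in DSL (1.3, SE 0.19, limma adjusted p = 0.00824), higher in 7 of 7 fish, with 9 fish called heterozygous. A4 (chr16:11308113) was by far the best covered, with 8559 reads in Pter and 7475 in DSL. Its reference share was 81.3% in Pter and 65.8% in DSL (1.32, SE 0.22, limma adjusted p = 0.0193), higher in 10 of 10 fish, although by 0.04 only in H/L replicate 2. The bin of A4 was higher in Pter as well (0.65, edgeR adjusted p = 0.00374).

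A5 (chr5:4832917) had shares of 63.2% and 48.7% (0.89, SE 0.16) in 9 fish. A6 (chr17:6948785) had 59.9% and 44.3% (0.94, SE 0.18) in 8 fish, in a bin that was higher in Pter (0.42, edgeR adjusted p = 0.00224). All 11 fish were called heterozygous at both. None of the 6 loci lay in the HOXDB region. The HOXD11B variant could not enter this scan, since fewer than 4 heterozygous fish had 20 reads there in both tissues.

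**Figure D5:**
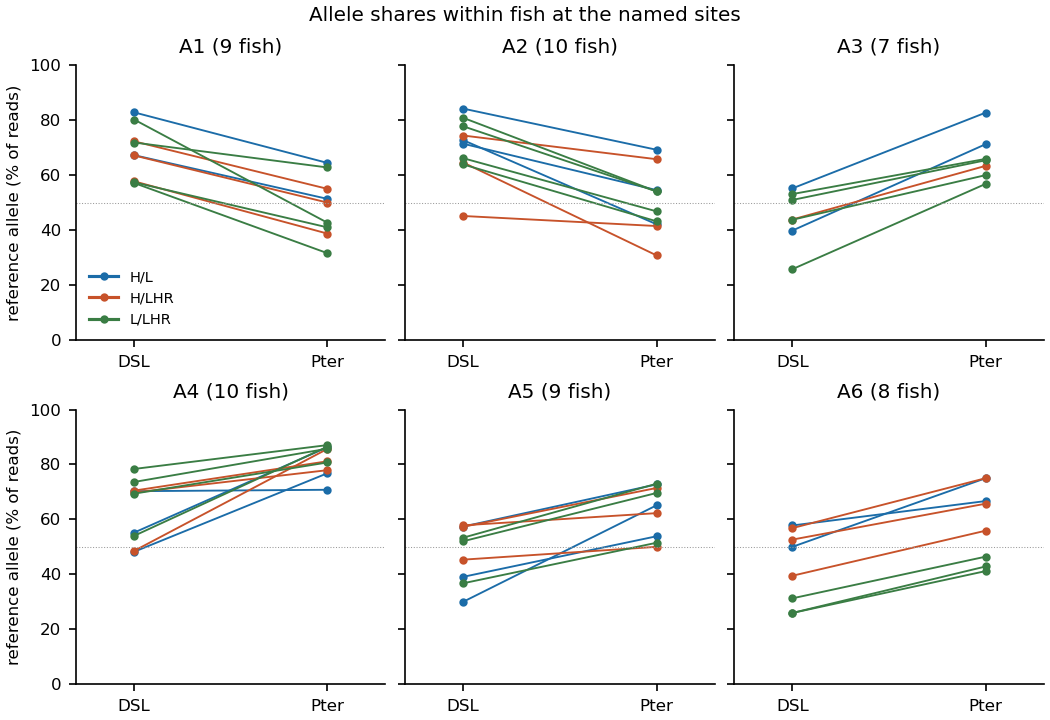
Share of reads from the reference allele (% of reads) in DSL and Pter at A1 to A6, with 1 line per fish coloured by genotype and a dotted line at 50%. All lines fall from DSL to Pter at A1 and A2 and rise at A3 to A6, and at A4 the H/L replicate 2 line is nearly flat.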

How the data were processed

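RNA-seq libraries (Illumina Stranded mRNA Prep, NovaSeq) were made from dissected tissues of single fry. Per the study's methods and the submitters' processing notes, the authors trimmed reads with Trim Galore and cutadapt 2.4, checked them with FastQC 0.11.9, mapped them with STAR in its 2-pass mode to their own linked-read Apeltes assembly, scaffolded along Gasterosteus, and counted alleles with the ASEReadCounter of GATK 4.1.4.1 (Picard 2.23.4 and SAMtools 1.10 are also listed). The deposited values are raw counts of reference and alternative reads at each listed site, without normalisation. Duplicate removal was not given in the sources used here.

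Counts of both alleles were summed in 10-kb bins, filtered with filterByExpr and tested with edgeR 4.0.16 (TMM, quasi-likelihood test, fish as a block) in R 4.3.3. Allele ratios were tested with limma 3.58.1 on the difference within fish (pseudocount 0.5, weights from the counting variance plus 0.25, at least 20 reads per library, a minor allele share of at least 20% in the other tissues, at least 4 fish). HOXDB window levels were log2(RPM + 0.01). Further computations used Python 3.11.15, numpy 2.4.6, pandas 2.3.3, scipy 1.17.1 and matplotlib 3.10.9. The fish pairs the libraries: same-fish deviations from the tissue means correlated at 0.13 to 0.59, and 8 of 11 libraries matched their own fish best (highest with another fish, 0.39).

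Bins named were, in each direction, the 10 largest folds (mean of at least 5 RPM in the higher tissue) and the 5 highest levels among called bins moving the same way in 11 of 11 fish, 1 per run, with up to 6 allele loci and the 3 smallest interaction p. The comparison, lists and rules were chosen with earlier results of these data known. Both steps were tested on simulated data. Alternatives included DESeq2 1.42.0, limma-voom, other bins, filters and scalings, no block, and each fish left out. The other tissues entered only to describe levels and for heterozygous calls.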

Additional observations from a re-analysis of the deposited data

Results flagged for a closer look

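Within genotypes of 4 fish, the highest or lowest per-fish value was checked for standing apart from the other 3 in 83 groups, and it did in 7. Chance gives about 1 such group in 20. In S5 the lowest L/LHR fish had a log2 difference of -4.52 (replicate 1, the others -3.47 to -3.40). In S12 the highest H/L fish had -0.14 (replicate 2). In B4 the highest L/LHR fish had 1.66 (replicate 2), and in B10 the lowest L/LHR fish had 0.73. The HOXD11B allele ratio had its lowest H/L fish at -0.91 (replicate 2), where the other 3 were -0.20 to -0.14. Among the allele sites, the highest L/LHR fish of A3 had a log2 change of 1.89 (replicate 1) and that of A4 had 2.44 (replicate 2). Every one of these values kept the sign of its comparison, which the naming rule required of all but the HOXD11B ratio.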

How the results depend on the processing

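Of 704 values of named bins under an alternative, 633 kept direction and call, 71 kept only the direction and 0 reversed. For named allele sites these numbers were 100 and 18 of 118, with 0 reversed. The lost calls were mostly those of single genotypes and of B12 and B13 (16 and 13 of 24).

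The 5337 calls became 2820 at an FDR of 0.01 (1529 higher in DSL, 1291 higher in Pter), 3124 without the fish as replicate block (1702 and 1422, with 3095 of the 3124 also among the 5337), 105 in H/L fish alone (99 and 6), 658 in H/LHR (596 and 62) and 1746 in L/LHR (898 and 848). Library totals gave 6232 (85.4% of the calls) higher in DSL and 1069 (14.6%) higher in Pter, against 52.4% and 47.6% with TMM. Voom called 5397 bins and DESeq2 6110. Leaving out 1 fish gave 4182 to 6116 (2112 to 3184 and 1967 to 2932), with none changing direction among shared calls. With 1 site per bin, 4 shared calls were opposite and 3330 the same. Over sites listed in all 22 libraries, 1 was opposite and 4352 the same. Without H/L replicates 2, 3 and 4 together, chosen after seeing the data, 5421 were called.

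The 515 bins at least 2-fold higher in DSL were 916 with library totals, 165 with at least 100 reads in 11 of 22 libraries, 311 in 20-kb bins, 324 over sites listed in all 22 libraries and 99 in H/L alone, and 467 to 565 with 1 fish left out. The 173 Pter-high ones were 49, 70, 102, 98 and 6 under the same settings, 79 without the block, 302 in 5-kb bins, 97 with 1 site per bin, 71 without the fish with a library under 10 M reads, 21 in H/LHR alone and 293 by DESeq2. They were 106 to 395 with 1 fish left out. The interaction gave 0 bins under every alternative except 1 without L/LHR replicate 1, so 0 to 1.

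The 38 allele sites were 6 at an FDR of 0.01, 63 with at least 10 reads, 5 without weights, 328 by Fisher's exact test without the block, and 7 to 69 with 1 fish left out. They were 64 without the shallow fish, a setting added after seeing the data. At the HOXDB variants the change without 1 fish ranged from -0.51 to 0.44 (HOXD9B in H/L, where 0.061 and 0.44 without replicates 1 and 2 reversed the sign), -0.88 to -0.24 (H/LHR), -0.09 to 0.16 (HOXD9B in L/LHR, reversed at -0.091 without replicate 3), -0.59 to 0.06 (HOXD11B in H/L, reversed at 0.061 without replicate 2 although each of the 3 fish left was below 0) and -0.52 to -0.37 (H/LHR). With fish as a replicate block (exact Mantel-Haenszel test) none of these 5 passed the threshold either, and the window levels stayed lower in Pter, from -1.13 to -0.98 (HOXD11B) and -1.06 to -0.93 (HOXD9B) with 1 fish left out. The cause of these movements was not tested. Low reads limit the allele tests, the 2 shallow DSL libraries limit low bins, and bins can hold several genes or part of 1.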
